A study of Arabidopsis thaliana with 3 samples.

Results

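DNA methylation over the MADS-box family of transcription factor genes was examined in *Arabidopsis* leaves with reduced levels of the histone variant H3.3. Members were the protein-coding genes whose product in the TAIR10.1 annotation is named AGAMOUS-like or MADS-box, together with *FLC*, *SVP* and *AG*. The rule used no methylation value and found 120 of 27444 protein-coding genes. Of these, 45 belong to the type II (MIKC) lineage and the other 75 include the type I genes. Mature Col-0 leaves, taken from soil-grown plants after a shift to long days, were assayed by bisulfite sequencing of the genome (BS-seq), in which a methylated cytosine is read as C and an unmethylated one as T. There were 2 *h3.3kd* libraries, called *h3.3kd* 1 and *h3.3kd* 2 after their replicate numbers, and 1 wild-type (WT) library. Per the study, the *h3.3kd* plants were homozygous for *htr4-2* and *htr8-2*, T-DNA insertions in a pair of the H3.3 genes, and expressed an artificial microRNA against *HTR5*, the remaining H3.3 gene, from the *HTR5* promoter. WT plants carried none of these. For this assay the study's methods name the transgenic lines *h3.3kd-2* and *h3.3kd-3*, both with the microRNA *amiR-HTR5-II*. The labels do not say which line is behind which *h3.3kd* library, and they give neither plant age nor the number of plants pooled.

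MADS-box proteins bind CArG-box motifs in DNA through the conserved MADS domain. Type II proteins also carry a keratin-like domain through which they assemble into larger complexes, and combinations of them specify sepals, petals, stamens, carpels and ovules. Other type II genes set flowering time, among them the repressors *FLC* and *SVP* and the promoter *SOC1*, whereas the type I genes studied so far act mainly in the female gametophyte and the endosperm. Many floral MADS-box genes are held silent in leaves by Polycomb group proteins. DNA methylation in plants occurs in CG, CHG and CHH contexts (H is A, C or T). CG methylation on its own is common within transcribed genes, and methylation in all contexts is typical of transposons.

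Sequencing gave 822515332 calls in *h3.3kd* 1, 842326850 in *h3.3kd* 2 and 839704204 in WT, or 19.2, 19.7 and 19.6 per cytosine. WT was not replicated. The distance between the *h3.3kd* libraries is therefore the only replicate error, the Fisher's exact tests below compare libraries and not conditions, and an exact permutation test of 1 library against 2 cannot go below p = 0.333. The distance between the *h3.3kd* libraries may also hold differences between transgenic lines, which cannot be told apart from replicate spread. Methylation inherited through the lineage of the transgenic plants and methylation altered by the knockdown cannot be told apart. All intervals are 95% Wilson intervals for counting error only.

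Most MADS-box genes carried very little CG methylation in leaves of either genotype. The level of a gene body (TSS to TES) was taken as C calls over all calls at its CG sites. The median over the 120 members was 0.798% in *h3.3kd* 1, 0.700% in *h3.3kd* 2 and 0.827% in WT, while the median over 26970 genes tested was 4.50% in *h3.3kd* 1, 4.09% in *h3.3kd* 2 and 5.18% in WT. In 63 members the level stayed under 2% in every library. These values are close to the members' median CHH level of 0.615% in *h3.3kd* 1, 0.628% in *h3.3kd* 2 and 0.620% in WT.

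By their WT levels, 69 members had under 2% CG methylation and 24 had from 2% to 10%. Another 14 combined at least 10% CG with under 10% CHG methylation, and 11 of these were type II genes. The remaining 13 had at least 10% CHG methylation, and none of them was type II. Genes of the class with at least 10% CG and under 10% CHG methylation made up 11.7% of the family and 36.3% of all genes. Genes with at least 10% CHG methylation made up 10.8% of the family and 4.84% of all genes.

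**Figure D1:**
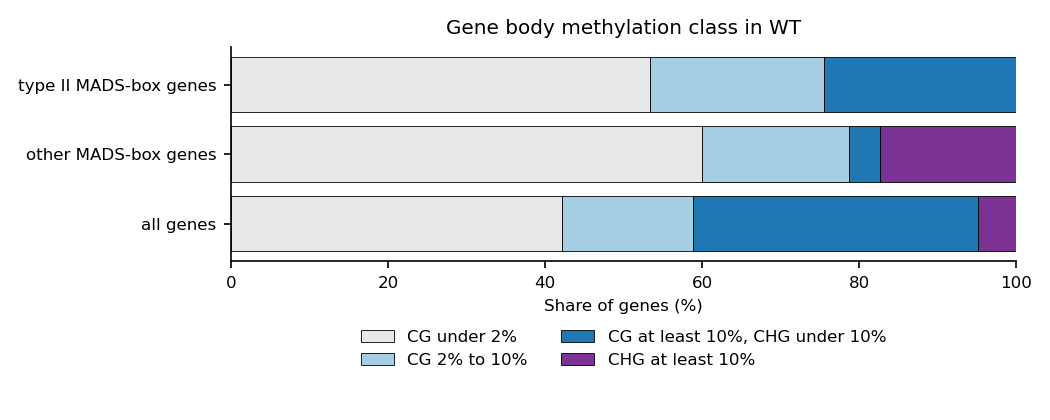
Stacked bars give the share of genes (%, x axis) in each class of WT gene body methylation, for type II MADS-box genes, the other MADS-box genes and all genes tested (y axis). Genes with at least 10% CHG methylation are 17.3% of the other MADS-box genes and 0% of type II genes.

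Gene bodies were compared first, since the study asked how H3.3 affects methylation there. The weighted CG level over all member bodies was 8.87% in *h3.3kd* 1, 8.90% in *h3.3kd* 2 and 9.31% in WT, and the mean of the *h3.3kd* libraries differed from WT by -0.421 points. Over all genes the level was 15% in *h3.3kd* 1, 14.6% in *h3.3kd* 2 and 16.7% in WT, a difference of -1.90 points. The type II genes were at 5.55% in *h3.3kd* 1, 5.85% in *h3.3kd* 2 and 5.84% in WT, so that WT lay between the *h3.3kd* libraries. The other members were at 13.2% in *h3.3kd* 1, 13% in *h3.3kd* 2 and 14.2% in WT, a difference of -1.09 points, with -0.226 points between *h3.3kd* 2 and *h3.3kd* 1. That difference depended on the weighting and on the genes, since it was -0.193 points with every CG site given equal weight and -0.166 points over the 61 of them with under 5% CHG methylation in WT. Those were at 2.12% in *h3.3kd* 1, 1.64% in *h3.3kd* 2 and 2.05% in WT, with WT between the *h3.3kd* libraries. For the whole family the difference was -0.198 points with equal weights, and over the members with under 5% CHG methylation it was -0.136 points. Coding exons of type II genes were at 5.53% in *h3.3kd* 1, 6.02% in *h3.3kd* 2 and 6.55% in WT, and their introns at 6.96% in *h3.3kd* 1, 6.97% in *h3.3kd* 2 and 6.24% in WT. The introns include a stretch of *ANR1* at 84.4% (288 calls) in *h3.3kd* 1, 85.9% (391 calls) in *h3.3kd* 2 and 8.86% (316 calls) in WT. The intron level without *ANR1* was not computed, so the rise is not shown to be general to these introns. Gene by gene, the median difference was -0.221 points over all genes and 0.000609 points over the members. Among the 14 members with at least 10% CG and under 10% CHG methylation in WT, 8 were below WT in both *h3.3kd* libraries and 4 above it, with a median difference of -2.46 points. The same class of all genes held 9789 genes, of which 6826 were lower and 1470 higher, with a median difference of -2.80 points.

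A gene was called when both *h3.3kd* libraries differed from WT at an FDR under 0.01 (two-sided Fisher's exact test with Benjamini-Hochberg adjustment over all genes) and by at least 10 points in the same direction. *AGL6* was called lower, 1 of 120 members, where 1.44% of all genes were. *SEP4* was called higher, again 1 of 120, where 0.304% of all genes were. A gene under 10% CG methylation in WT could not fall by 10 points. In the family 57.5% of genes were under 2% and 20% from 2% to 10%, beside 42.2% and 16.6% of all genes. The shares of lower genes were not limited to genes able to fall that far. Without the minimum of 10 points, 9 members were lower (7.5%, beside 19.0% of all genes) and 4 were higher (3.33%, beside 4.84%). The lower genes were *AGL6*, *AGL16*, *AGL18*, *AGL39*, *AGL72*, *PHE1*, *PHE2*, *SHP2* and AT2G41440, and the higher ones *SEP4*, *ANR1*, *AGL54* and *AGL59*. A fit with limma, in which the spread comes from the *h3.3kd* pair, called 0 members, with 10 (8.33%) lower and 7 (5.83%) higher at an unadjusted p under 0.05, beside 3947 (14.6%) lower and 1562 (5.79%) higher of all genes. The *h3.3kd* libraries differed from each other at the FDR in 14 members (11.7%) and in 10.7% of all genes.

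**Figure D2:**
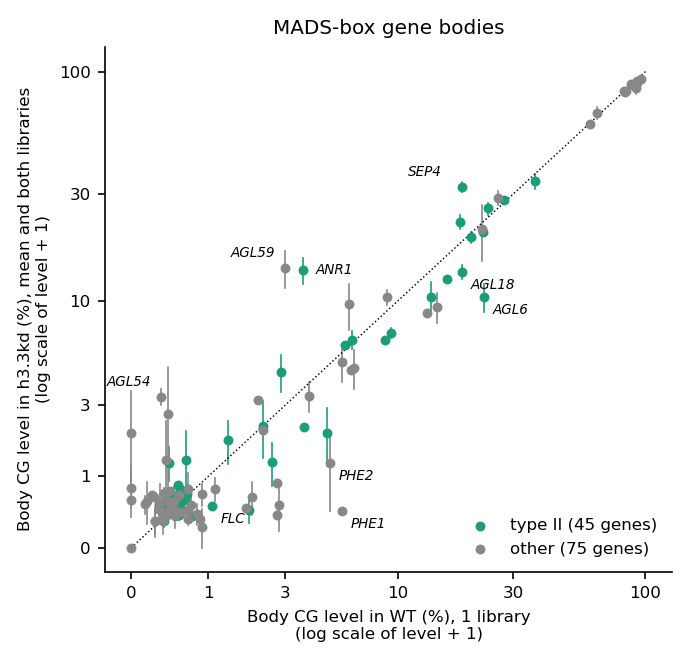
Each point is 1 MADS-box gene, placed by its body CG level in WT (%, x axis) and by the mean of both *h3.3kd* libraries (%, y axis), each axis on a log scale of the level plus 1, and the vertical lines join the *h3.3kd* libraries. The 120 genes crowd near 0 or along the dotted line of equal levels, with *SEP4*, *ANR1* and *AGL59* above the line and *AGL6*, *PHE1* and *PHE2* below it.

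The sequences below come from the 2 genes called, *AGL6* and *SEP4*. They are from the TAIR10.1 assembly, 5′ to 3′ on the strand of the gene, with CG dinucleotides in capitals. The *AGL6* stretch is shown because both *h3.3kd* libraries had 0 methylated calls there, and the *SEP4* stretch because it is the one tile of that gene called higher.
AGL6 (chr2:18805801-18806000, plus strand): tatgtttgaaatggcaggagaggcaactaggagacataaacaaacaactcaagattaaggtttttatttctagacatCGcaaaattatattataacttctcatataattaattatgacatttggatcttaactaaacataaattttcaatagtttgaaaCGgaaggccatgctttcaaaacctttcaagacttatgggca
SEP4 (chr2:1131201-1131300, plus strand): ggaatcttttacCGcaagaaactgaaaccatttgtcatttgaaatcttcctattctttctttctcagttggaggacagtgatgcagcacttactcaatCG
The *AGL6* stretch holds 2 CG dinucleotides, the first in intron 6 and the second in exon 7. Over both, the level was 0% (88 calls) in *h3.3kd* 1, 0% (88 calls) in *h3.3kd* 2 and 43.3% (90 calls) in WT. The *SEP4* stretch also holds 2 CG dinucleotides, plus 1 base of a CG cut by its left edge. The cytosine of the first whole CG was at 87.5% (32 calls) in *h3.3kd* 1, 80.6% (31 calls) in *h3.3kd* 2 and 0% (18 calls) in WT, whereas the last CG was at 0% in all libraries.

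*AGL6* (AT2G45650, chromosome 2, 18804190 to 18806586, plus strand) is a close relative of the *SEPALLATA* genes and is known for roles in flowers and lateral organs. Its body CG level was 8.88% (2162 calls) in *h3.3kd* 1, 12% (2242 calls) in *h3.3kd* 2 and 22.9% (2148 calls) in WT. The intervals ran from 7.75% to 10.2%, from 10.7% to 13.4% and from 21.2% to 24.7%, so that neither *h3.3kd* interval met the WT one. The differences from WT were -14 and -11 points (FDRs of 3.21e-35 and 2.21e-20), beside 3.07 points between the *h3.3kd* libraries, and the FDR in limma was 0.111. Methylation was confined, among its exons and introns, to a block from exon 4 to exon 7 of 8, and the loss lay within that block. Exon 4 was at 48.4% in *h3.3kd* 1, 67.1% in *h3.3kd* 2 and 81.7% in WT, and exon 7 at 15.7% in *h3.3kd* 1, 19.7% in *h3.3kd* 2 and 62.1% in WT. Every exon and intron from exon 1 to intron 3, and exon 8, stayed under 1% in each library. Of the 4 tiles that were lower, 2 make up the stretch printed above, an earlier one was 40.6% and 58.5% in *h3.3kd*, against 83.2% in WT, and the tile just after the stretch was 18.5% and 23.3% in *h3.3kd*, against 63.6% in WT. Outside these tiles, the level was 5.43% and 6.65% in *h3.3kd*, against 9.55% in WT.

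*SEP4* (AT2G03710, chromosome 2, 1129229 to 1131838, plus strand) is one of the *SEPALLATA* genes, whose proteins join the other floral MADS-box proteins in complexes. Its body CG level was 34% (942 calls) in *h3.3kd* 1, 30.5% (1062 calls) in *h3.3kd* 2 and 18.6% (1056 calls) in WT. The intervals ran from 31% to 37.1%, from 27.8% to 33.3% and from 16.3% to 21%, with both *h3.3kd* intervals above the WT one. The differences were 15.4 and 11.9 points (FDRs of 8.56e-14 and 1.50e-09), and the FDR in limma was 0.0948. The gene holds only 44 CG cytosines. Its intron 6 was at 88.2% in *h3.3kd* 1, 88.9% in *h3.3kd* 2 and 0% in WT. Intron 4, nearer the TSS, was methylated in all libraries, at 86% in *h3.3kd* 1, 90.3% in *h3.3kd* 2 and 89.7% in WT. The 100-bp tile printed above was 60.3% and 65.7% in *h3.3kd*, against 0% in WT, and it lies partly in exons of other transcripts of the gene.

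**Figure D3:**
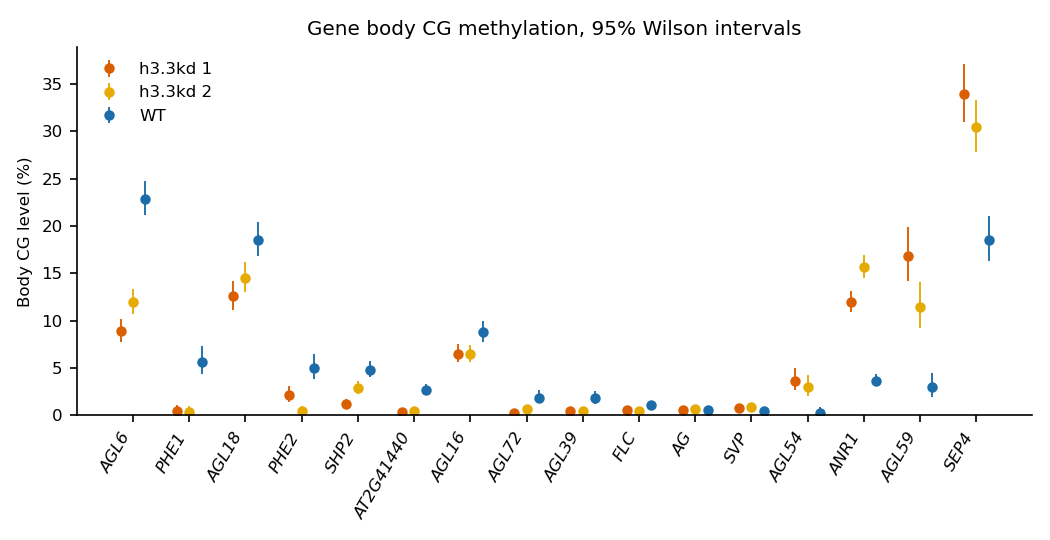
Points give the body CG level (%, y axis) in *h3.3kd* 1, *h3.3kd* 2 and WT, with 95% Wilson intervals as bars, for the 13 MADS-box genes past the FDR in both *h3.3kd* libraries and for *FLC*, *SVP* and *AG* (x axis, ordered by the difference from WT). *AGL6* lies lowest relative to WT and *SEP4* highest, and *FLC*, *SVP* and *AG* sit near 0 in all libraries.

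The 14 floral organ identity genes on the list used here were at a weighted CG level of 4.26% in *h3.3kd* 1, 4.26% in *h3.3kd* 2 and 4.54% in WT, with a median difference of -0.0347 points. *SEP4* was higher and *SHP2* lower at the FDR, and 8 of the 14 were under 2% in every library. *AG*, the C-class gene of stamens and carpels, was at 0.601% (3160 calls) in *h3.3kd* 1, 0.640% (3438 calls) in *h3.3kd* 2 and 0.619% (3552 calls) in WT over 148 CG cytosines, values that differed by less than their intervals. *AP1*, *CAL*, *FUL*, *AP3*, *SEP3* and *SHP1* were likewise under 1% in every library. *SHP2*, which acts in ovules and in the valve margin of the fruit, was at 1.21% in *h3.3kd* 1, 2.90% in *h3.3kd* 2 and 4.81% in WT (FDRs of 7.00e-13 and 0.00186). One tile of its coding sequence was 9.84% and 0.538% in *h3.3kd*, against 56% in WT. *PI*, a B-class gene of petals and stamens, was at 2.30% in *h3.3kd* 1, 2.15% in *h3.3kd* 2 and 3.71% in WT and did not pass in either library, although a tile near its start was 0.654% and 5.71% in *h3.3kd*, against 25.8% in WT.

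*SEP1* and *STK* passed the FDR in both libraries in the CHG context, where 3 members were lower at any size of difference, beside 0.938% of all genes. *SEP1* (AT5G15800, chromosome 5, 5151334 to 5154253, minus strand), another cofactor of the floral proteins, had a body CG level of 12.4% in *h3.3kd* 1, 12.6% in *h3.3kd* 2 and 16.1% in WT, past the FDR in *h3.3kd* 1 only (FDRs of 0.00989 and 0.0144). Its body CHG level was 0.593% (3203 calls) in *h3.3kd* 1, 0.568% (3168 calls) in *h3.3kd* 2 and 4.80% (3143 calls) in WT, with FDRs of 3.67e-25 and 2.10e-25, although the difference stayed under the 5 points asked of a CHG call. In exon 7, its last, CHG methylation was 1.23% and 0.547% in *h3.3kd*, against 19.4% in WT, while CG methylation was 69.9% and 64.3% in *h3.3kd*, against 87.7% in WT. Both *h3.3kd* libraries thus kept CG methylation in an exon where their CHG level was below 2%. *STK* (AT4G09960, chromosome 4, 6236375 to 6241281, minus strand), which specifies ovules, had the same arrangement. Its body CHG level was 0.594% in *h3.3kd* 1, 0.572% in *h3.3kd* 2 and 2.44% in WT (FDRs of 5.10e-10 and 8.15e-11), and in exon 9, its last, CHG methylation was 0.496% and 0.631% in *h3.3kd*, against 11.1% in WT. CG methylation in that exon was 53.3% and 49.2% in *h3.3kd*, against 64.7% in WT. In *SEP1* the single CG of a tile in intron 5 also had 0 methylated calls in *h3.3kd*.
SEP1 (chr5:5152001-5152100, minus strand): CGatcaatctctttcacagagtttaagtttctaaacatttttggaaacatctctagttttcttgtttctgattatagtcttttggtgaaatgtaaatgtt
This tile, printed for its lone CG at the 5′ edge, was at 0% (43 calls) in *h3.3kd* 1, 0% (50 calls) in *h3.3kd* 2 and 55.6% (45 calls) in WT.

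*FLC* (AT5G10140, chromosome 5, 3173382 to 3179448, minus strand), the repressor of flowering that prolonged cold silences, was almost free of methylation in leaves. Its body CG level was 0.529% (4724 calls) in *h3.3kd* 1, 0.471% (4669 calls) in *h3.3kd* 2 and 1.07% (4781 calls) in WT. The FDR was 0.0118 for *h3.3kd* 1 and 0.00312 for *h3.3kd* 2, so the gene did not pass in both. Its first intron, which takes part in the control of *FLC* silencing, holds 1 tile that was lower.
FLC (chr5:3177801-3177900, minus strand): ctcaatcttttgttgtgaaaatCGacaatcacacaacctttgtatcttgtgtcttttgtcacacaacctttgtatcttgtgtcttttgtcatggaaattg
The only CG in this tile, printed to show how isolated it is, was at 3.12% (32 calls) in *h3.3kd* 1, 0% (50 calls) in *h3.3kd* 2 and 47.7% (44 calls) in WT over both strands. The other 204 CG cytosines of the body were at 0.512% in *h3.3kd* 1, 0.476% in *h3.3kd* 2 and 0.633% in WT. *FLC* lies 293 kb from *HTR8*, which carries the *htr8-2* insertion in both *h3.3kd* libraries, and DNA linked to the insertion and the knockdown cannot be told apart at this gene. Further from *HTR8* lie *AGL15* (975 kb), *AGL96* (1489 kb) and *SEP1* (1678 kb). Near *HTR4*, which carries *htr4-2*, lie *AGL21* (717 kb), AT4G37435 (955 kb) and *AGL40* (1293 kb). Linked DNA and the knockdown cannot be told apart at these genes either. The 1 kb upstream of *FLC* was at 13.8% in *h3.3kd* 1, 12.7% in *h3.3kd* 2 and 17.1% in WT and did not pass (FDRs of 0.196 and 0.0337).

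Of the other repressors of flowering, *AGL18* alone passed the FDR in both libraries. The 9 repressors were at 2.45% in *h3.3kd* 1, 2.88% in *h3.3kd* 2 and 3.56% in WT, 6 of them under 2% in every library, and at the FDR 1 was lower and 0 were higher. *SVP*, the partner of *FLC*, was at 0.820% in *h3.3kd* 1, 0.863% in *h3.3kd* 2 and 0.519% in WT (FDRs of 0.238 and 0.193). *AGL18* (AT3G57390, chromosome 3, 21233472 to 21235978, plus strand), which delays flowering together with *AGL15*, was lower, at 12.6% (1745 calls) in *h3.3kd* 1, 14.5% (1910 calls) in *h3.3kd* 2 and 18.5% (1819 calls) in WT (FDRs of 7.07e-06 and 0.00355). Its intron 2 was 1.82% and 0% in *h3.3kd*, against 71.7% in WT, and its intron 3 0.565% and 0.565% in *h3.3kd*, against 42.8% in WT. Further along the same gene a tile ran the other way, 51.6% and 67.4% in *h3.3kd*, against 0% in WT. *MAF2*, which keeps plants from flowering after short cold spells, was at 8.54% in *h3.3kd* 1, 12.2% in *h3.3kd* 2 and 13.8% in WT and passed in *h3.3kd* 1 only. *MAF3*, *MAF4*, *MAF5* and *AGL15* were under 1% in every library.

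The 7 promoters of flowering were at 4.09% in *h3.3kd* 1, 3.89% in *h3.3kd* 2 and 4.09% in WT. *AGL72*, a relative of *SOC1*, was lower at 0.268% in *h3.3kd* 1, 0.631% in *h3.3kd* 2 and 1.89% in WT (FDRs of 3.07e-05 and 0.00506), and none of the 7 was higher. *SOC1* itself, which lies next to *AGL6* on chromosome 2, was at 0.782% in *h3.3kd* 1, 0.773% in *h3.3kd* 2 and 0.553% in WT, and *AGL24* at 0.652% in *h3.3kd* 1, 0.468% in *h3.3kd* 2 and 0.329% in WT, neither of them past the FDR in either library. *AGL42*, which represses floral organ senescence, was past it in *h3.3kd* 1 only, at 5.52% in *h3.3kd* 1, 3.52% in *h3.3kd* 2 and 2.84% in WT. One intronic tile of *AGL42* was 84.4% and 75% in *h3.3kd*, against 4.65% in WT.

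*ANR1* (AT2G14210, chromosome 2, 6018558 to 6023863, plus strand), which promotes lateral root growth where nitrate is present, was higher in one place and lower in another. Its body CG level was 12% (3338 calls) in *h3.3kd* 1, 15.7% (3474 calls) in *h3.3kd* 2 and 3.69% (3525 calls) in WT (FDRs of 7.23e-37 and 4.06e-66). The intervals ran from 10.9% to 13.1%, from 14.5% to 16.9% and from 3.11% to 4.36%. The gene was not called because *h3.3kd* 1 was 8.27 points above WT, short of 10, and its FDR in limma, 0.0943, was the lowest of the family. Intron 3 held the rise, at 44% in *h3.3kd* 1, 54.7% in *h3.3kd* 2 and 5.38% in WT. The 4 neighbouring tiles called in the gene as higher lie in this intron, and the middle pair is printed here with its 6 CG dinucleotides in capitals.
ANR1 (chr2:6021501-6021700, plus strand): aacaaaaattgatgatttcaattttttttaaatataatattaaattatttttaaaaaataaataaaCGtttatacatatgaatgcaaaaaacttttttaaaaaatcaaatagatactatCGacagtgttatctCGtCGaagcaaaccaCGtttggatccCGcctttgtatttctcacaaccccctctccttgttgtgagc
Over these bases the CG level was 84.4% (288 calls) in *h3.3kd* 1, 85.9% (391 calls) in *h3.3kd* 2 and 8.86% (316 calls) in WT. The last exon, exon 9, ran the other way, at 0.402% in *h3.3kd* 1, 0.433% in *h3.3kd* 2 and 26.6% in WT. Outside its called tiles *ANR1* was at 1.26% in *h3.3kd* 1, 0.758% in *h3.3kd* 2 and 1.02% in WT.

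The 5 root and vegetative genes were at 7.37% in *h3.3kd* 1, 8.27% in *h3.3kd* 2 and 6.0% in WT, with 1 higher (*ANR1*) and 1 lower (*AGL16*). *AGL16*, a target of a microRNA with roles in stomata and flowering time, was at 6.54% in *h3.3kd* 1, 6.46% in *h3.3kd* 2 and 8.79% in WT (FDRs of 0.00663 and 0.00402). A pair of tiles at the end of its coding sequence were lower, one of them 62.1% and 59.3% in *h3.3kd*, against 90.8% in WT and the next 4.17% and 2.44% in *h3.3kd*, against 63.3% in WT. *AGL21*, which acts in lateral roots, was at 7.44% in *h3.3kd* 1, 6.66% in *h3.3kd* 2 and 9.29% in WT, past the FDR in *h3.3kd* 2 only. *AGL12*, a gene of the root meristem, was at 2.42% in *h3.3kd* 1, 1.25% in *h3.3kd* 2 and 1.39% in WT, and *AGL17* at 5.85% in *h3.3kd* 1, 7.21% in *h3.3kd* 2 and 6.29% in WT, and neither passed.

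The 7 genes of the MIKC\* group, several of which act in pollen, were at 9.78% in *h3.3kd* 1, 10.6% in *h3.3kd* 2 and 9.78% in WT and none passed the FDR in both libraries. The body level of *AGL66* was 28.6% and 28% in *h3.3kd*, against 27.6% in WT. Within the gene, 2 adjoining tiles were nevertheless higher, the first 72.2% and 61.7% in *h3.3kd*, against 6.40% in WT and the second 90.2% and 88.1% in *h3.3kd*, against 57% in WT, while the rest of the body was 22.5% and 21.5% in *h3.3kd*, against 27.8% in WT. *AGL30* had 3 higher tiles, of which the highest was 93.1% and 83.3% in *h3.3kd*, against 0% in WT, and the rest of its body was 22.4% and 25% in *h3.3kd*, against 26.2% in WT. In both genes the tiles were higher in *h3.3kd* while the rest of the body was below WT in both libraries, a difference that was not tested. Leaving out tiles chosen as higher biases the rest of the body towards lower *h3.3kd* levels.

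Among the 75 other members, 4 were lower and 2 higher at the FDR. *PHE1* (AT1G65330, chromosome 1, 24266257 to 24267336, minus strand), an imprinted gene expressed from the paternal allele in endosperm, was at 0.469% (1066 calls) in *h3.3kd* 1, 0.379% (1055 calls) in *h3.3kd* 2 and 5.67% (899 calls) in WT (FDRs of 7.01e-12 and 1.81e-12). The difference came from 1 tile of coding sequence, which is shown with its 7 CG dinucleotides in capitals.
PHE1 (chr1:24267001-24267100, minus strand): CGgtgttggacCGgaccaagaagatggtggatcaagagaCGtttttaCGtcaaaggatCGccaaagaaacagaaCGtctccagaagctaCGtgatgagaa
The tile was at 0% (245 calls) in *h3.3kd* 1, 0.810% (247 calls) in *h3.3kd* 2 and 25% (200 calls) in WT. In WT the methylated calls were concentrated on the upstream side, where the printed sequence begins, with 65% of 20 calls at the first cytosine of the coding strand, and both *h3.3kd* libraries were at 0% there. The rest of the body was at 0.609% in *h3.3kd* 1, 0.248% in *h3.3kd* 2 and 0.143% in WT. The 1 kb downstream was at 31.3% in *h3.3kd* 1, 26.4% in *h3.3kd* 2 and 28.8% in WT and did not pass. *PHE2*, the close copy of *PHE1*, was at 2.11% in *h3.3kd* 1, 0.436% in *h3.3kd* 2 and 5.0% in WT (FDRs of 0.00108 and 2.09e-11). Reads that match both copies may have been assigned to either or dropped, so the values of such close copies are uncertain and not independent.

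The remaining changes in this group were small or rested on few sites. *AGL59*, a type I gene, was at 16.8% (659 calls) in *h3.3kd* 1, 11.5% (681 calls) in *h3.3kd* 2 and 2.98% (738 calls) in WT (FDRs of 3.68e-18 and 2.46e-09), with one higher tile 46% and 21.9% in *h3.3kd*, against 0.649% in WT. *AGL54* was at 3.68% in *h3.3kd* 1, 2.99% in *h3.3kd* 2 and 0.306% in WT (FDRs of 1.11e-07 and 5.68e-06). AT2G41440 was at 0.321% in *h3.3kd* 1, 0.429% in *h3.3kd* 2 and 2.70% in WT and *AGL39* at 0.465% in *h3.3kd* 1, 0.474% in *h3.3kd* 2 and 1.81% in WT, both lower. A tile of AT2G41440 was 0.649% and 0.730% in *h3.3kd*, against 36.7% in WT, and the rest of that gene was 0.302% and 0.414% in *h3.3kd*, against 0.618% in WT.

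The 13 members with at least 10% CHG methylation in WT stayed heavily methylated in CG. They were *AGL28*, *AGL34*, *AGL36*, *AGL57*, *AGL85*, *AGL86*, *AGL90*, *AGL92*, AT1G33070, AT1G59920, AT1G59930, AT5G35120 and AT5G46320. Their weighted CG level was 79.5% in *h3.3kd* 1, 80.2% in *h3.3kd* 2 and 80.7% in WT, and the CHG level 29.4% in *h3.3kd* 1, 30.9% in *h3.3kd* 2 and 33.2% in WT. The same class of all genes held 1305 genes, at a CG level of 63.0% in *h3.3kd* 1, 62.2% in *h3.3kd* 2 and 65.4% in WT. In both *h3.3kd* libraries 7 members were below WT and 3 above it, beside 739 and 244 of those genes. None of the 13 members passed the CG FDR in both *h3.3kd* libraries. The lowest CG level of these members was that of AT5G46320, 30.8% and 26.8% in *h3.3kd*, against 25.9% in WT, and among the highest was *AGL34*, 90.0% and 92.6% in *h3.3kd*, against 93.1% in WT. *AGL36*, an imprinted gene expressed from the maternal allele in endosperm, was 90.7% and 89.2% in *h3.3kd*, against 92.8% in WT. AT5G35120 was 80.7% and 91.4% in *h3.3kd*, against 92.3% in WT, and the *h3.3kd* libraries differed there from each other (FDR of 0.000113).

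In the CHG context 119 members were tested. AT1G33070 was called lower, 1 of 119 beside 0.436% of all genes, at 15.6% (1316 calls) in *h3.3kd* 1, 15.1% (1532 calls) in *h3.3kd* 2 and 24.6% (1429 calls) in WT (FDRs of 7.51e-07 and 2.14e-08). No member was called higher, beside 0.122% of all genes. *AGL86* was at 19.1% in *h3.3kd* 1, 22.7% in *h3.3kd* 2 and 28.7% in WT, *AGL85* at 23.3% in *h3.3kd* 1, 34.1% in *h3.3kd* 2 and 36.5% in WT and *AGL90* at 47.7% in *h3.3kd* 1, 48.8% in *h3.3kd* 2 and 49.1% in WT, and none of these passed in both libraries. In the CHH context no member was called, beside 0.0257% of genes lower and 0% higher. At the FDR alone (0.863% of all genes were lower) *AGL14*, *AGL23* and *STK* had lower CHH levels, *STK* at 0.880% in *h3.3kd* 1, 0.940% in *h3.3kd* 2 and 1.33% in WT.

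Tiles (100 bp, 20 CG calls or more in each library) were compared by the rule of the study, an FDR under 0.01 and 20 points in both *h3.3kd* libraries, here used for gains as well as losses. A lower tile was found in 15 members (12.5%, beside 34.4% of all genes) and a higher one in 12 members (10%, beside 21.7%). A tile under 20% in WT could not be called lower, and 57.5% of members had body CG under 2% in WT, beside 42.2% of all genes. Both shares also depend on the number of tiles per gene. In the class under 2% the median length was 1194 bp for members and 1520.5 bp for all genes. Of all tiles tested in the genome, 2.59% were lower and 1.19% higher, and the same shares over member tiles were not computed. Of the 15 members 12 were type II, and of the 12 members 8 were. Longer bodies hold more tiles, and genes were not matched for length. Among members under 2% CG in WT, the median length was 3636 bp in type II genes and 972 bp in the others. The 22 lower tiles lay mostly in coding sequence (11), in UTRs (5) or in introns (6), with median levels of 0.665% and 1.13% in *h3.3kd*, against 53.1% in WT. The 18 higher tiles lay in introns (11) or coding sequence (7), with medians of 81.1% and 79.7% in *h3.3kd*, against 0.846% in WT. The median tile of either kind held 4 CG cytosines. These medians describe tiles chosen for their difference and are not tested. The share of all tested tiles in introns, coding sequence and UTRs was not computed, so the places of the called tiles have no background. Adjoining tiles were counted separately, among them 4 higher tiles in intron 3 of *ANR1* and 2 in *AGL66*.

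**Figure D4:**
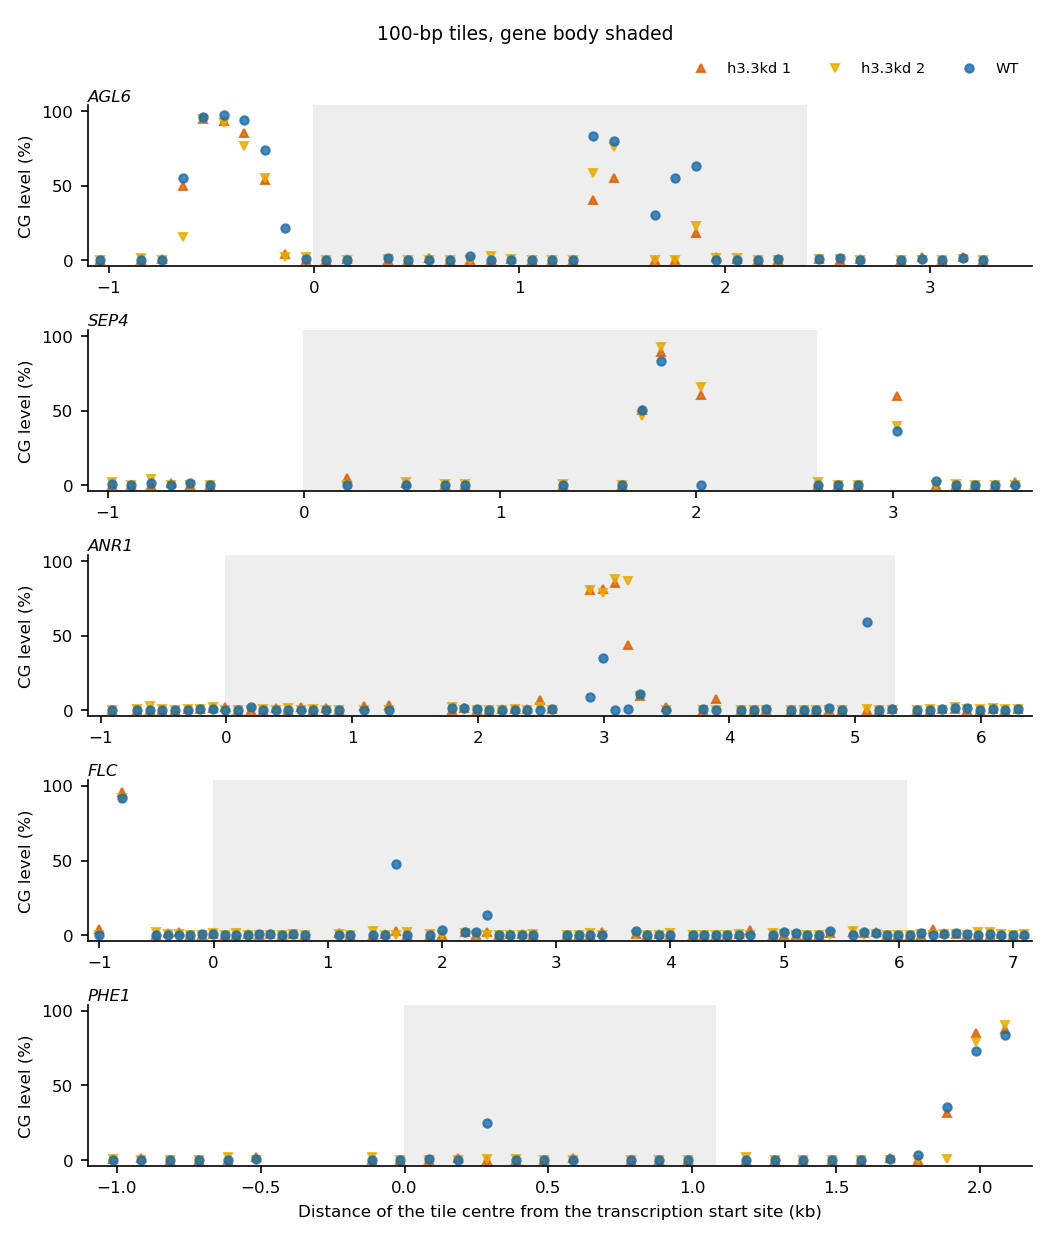
CG level (%, y axis) of 100-bp tiles (20 calls or more in each library) against distance from the TSS (kb, x axis) for *AGL6*, *SEP4*, *ANR1*, *FLC* and *PHE1*, with the gene body shaded. The libraries separate at a few tiles per gene, such as the intron 3 tiles of *ANR1*, and are near 0 together over most of each body.

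The 1 kb upstream of the TSS, which covers most promoters, was compared in 118 members. The other members, *AG* and *AGL40*, had fewer than 10 CG cytosines there. The weighted CG level was 13.3% in *h3.3kd* 1, 13.3% in *h3.3kd* 2 and 14.8% in WT over the family, a difference of -1.56 points that shrank to -0.131 points with every CG site given equal weight. Over the type II genes the level was 4.80% in *h3.3kd* 1, 4.98% in *h3.3kd* 2 and 4.90% in WT. *STK*, *AGL23* and *AGL12* were called higher, 3 of 118 beside 0.741% of all genes, and *AGL52* and *AGL53* were called lower, 2 of 118 beside 2.39%. With 500 bp in place of 1 kb 0 members were higher, and with 2 kb *STK* alone was. In the 1 kb window 0 members differed between the *h3.3kd* libraries at the FDR, beside 5.40% of all genes, whereas in the 500 bp window *AGL43*, *AGL55* and AT5G40070 did. Parts of the *STK*, *AGL23* and *AG* upstream regions where tiles differed are printed on the strand of each gene, CG in capitals.
STK (chr4:6242001-6242100, minus strand): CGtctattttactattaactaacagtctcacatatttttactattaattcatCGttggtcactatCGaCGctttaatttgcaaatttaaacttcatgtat
AGL23 (chr1:24280301-24280500, plus strand): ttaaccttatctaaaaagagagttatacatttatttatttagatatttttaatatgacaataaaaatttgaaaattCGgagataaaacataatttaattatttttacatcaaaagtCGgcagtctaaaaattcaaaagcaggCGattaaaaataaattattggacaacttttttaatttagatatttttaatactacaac
AG (chr4:10382101-10382200, plus strand): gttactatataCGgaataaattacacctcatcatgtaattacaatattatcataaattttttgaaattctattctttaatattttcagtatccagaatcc
The *STK* stretch holds 4 CG dinucleotides, the *AGL23* stretch 3 and the *AG* stretch 1.

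Upstream of *STK* the CG level was 21.2% (599 calls) in *h3.3kd* 1, 26.2% (738 calls) in *h3.3kd* 2 and 1.31% (761 calls) in WT (FDRs of 1.13e-34 and 1.27e-49). The tile printed above, 769 bp before the TSS, was at 63.1% (176 calls) in *h3.3kd* 1, 77.6% (223 calls) in *h3.3kd* 2 and 2.72% (184 calls) in WT, while the *STK* body did not pass, at 20.3% in *h3.3kd* 1, 20.7% in *h3.3kd* 2 and 22.7% in WT. *AGL23* (AT1G65360, chromosome 1, 24281337 to 24282233, plus strand), which acts in the embryo sac, was at 27.1% (340 calls) in *h3.3kd* 1, 19.7% (442 calls) in *h3.3kd* 2 and 0.703% (427 calls) in WT upstream (FDRs of 6.09e-30 and 3.98e-22). Its printed stretch, 886 and 986 bp before the TSS, was at 72.6% (124 calls) in *h3.3kd* 1, 43.8% (194 calls) in *h3.3kd* 2 and 1.29% (155 calls) in WT. Neither upstream window overlaps another protein-coding gene. *AGL12* was 44.6% and 44.6% in *h3.3kd*, against 34.4% in WT upstream (FDRs of 0.000254 and 0.000192), with one tile 76.7% and 79.7% in *h3.3kd*, against 0% in WT.

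Of the upstream regions called lower, that of *AGL52* was 20.8% and 18% in *h3.3kd*, against 35% in WT (FDRs of 3.79e-11 and 2.82e-16), and 740 of its 1000 bp lie in the neighbouring gene *TOPP7*. That of *AGL53* was 42.7% and 43.3% in *h3.3kd*, against 58.3% in WT (FDRs of 6.31e-05 and 7.09e-05), at a gene with 0.398, 0.437 and 0.353 times the typical depth of a gene in *h3.3kd* 1, *h3.3kd* 2 and WT. Over the 8 CG cytosines upstream of *AG*, too few for the test by gene, the level was 1.44% (139 calls) in *h3.3kd* 1, 0.469% (213 calls) in *h3.3kd* 2 and 12.5% (208 calls) in WT. The tile printed for *AG*, 705 bp before the TSS, passed the tile rule at 2.78% (36 calls) in *h3.3kd* 1, 0% (60 calls) in *h3.3kd* 2 and 43.3% (60 calls) in WT.

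**Figure D5:**
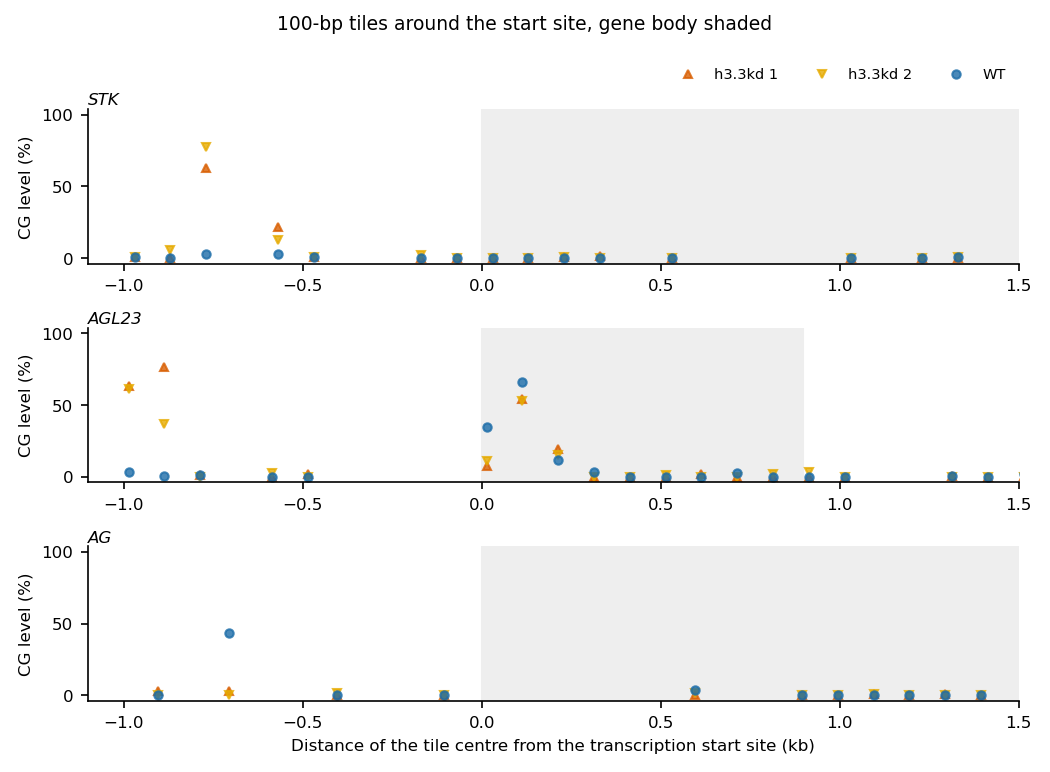
CG level (%, y axis) of 100-bp tiles (20 calls or more in each library) around the TSS (kb, x axis) of *STK*, *AGL23* and *AG*, with the gene body shaded. *STK* and *AGL23* have higher tiles in *h3.3kd* before the TSS and *AG* a lower one.

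In CHG, the region upstream of *AGL6* was called lower, 1 of 120 beside 1.11% of all genes, at 23% (925 calls) in *h3.3kd* 1, 21.8% (990 calls) in *h3.3kd* 2 and 32% (1057 calls) in WT (FDRs of 0.000497 and 2.12e-05). CG methylation there was 55.2% and 50.5% in *h3.3kd*, against 59.9% in WT and CHH methylation 6.17% and 5.18% in *h3.3kd*, against 9.24% in WT. *AGL6* was thus lower both in its body, in CG, and before its TSS, in CHG. Upstream of *AGL92*, CHG methylation was called higher, 1 of 120 beside 0.535%, at 12.6% in *h3.3kd* 1, 11.5% in *h3.3kd* 2 and 3.40% in WT (FDRs of 2.17e-06 and 5.08e-06). No member was called in upstream CHH, beside 0.162% of genes lower and 0.0147% higher.

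The 1 kb downstream of the TES was added after values had been seen. Here 5 of 120 members were called lower in CG, beside 4.95% of all genes, and 1 higher, beside 0.772%. *AGL83* was the one lower member with no other protein-coding gene in the window. Its downstream CG level was 0.614% (651 calls) in *h3.3kd* 1, 0.308% (649 calls) in *h3.3kd* 2 and 21.3% (717 calls) in WT (FDRs of 8.21e-39 and 1.63e-41), and its CHG level 0.602% and 0.172% in *h3.3kd*, against 13.5% in WT, called lower as well with that of AT2G41470 (2 of 120, beside 0.730% of genes). In the other 4, AT1G48150, AT3G12510, *SHP1* and *AGL62*, the window overlaps a neighbouring gene. The window of *SHP1*, all of it in *GAUT15*, was 19% and 12.8% in *h3.3kd*, against 37.2% in WT. That of *AGL62*, which delays endosperm cellularization, has 462 bp in *ARF4* and was 5.29% and 6.40% in *h3.3kd*, against 23.4% in WT. AT1G33070 was called higher, 12% and 15.8% in *h3.3kd*, against 0.589% in WT, and 650 bp of its window lie in AT1G33080, with a tile inside that gene at 42.9% and 41.1% in *h3.3kd*, against 0% in WT.

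For comparison, 27 flowering regulators outside the MADS-box family, many of which act on *FLC*, had more CG methylation in their bodies. Their weighted body CG level was 25.9% in *h3.3kd* 1, 25% in *h3.3kd* 2 and 28.2% in WT, with a median difference of -1.93 points. None was called, 9 were lower at the FDR, which 19.0% of all genes passed, and 0 were higher. The greatest drops were in *ELF7*, a Paf1 complex gene, at 23.2% in *h3.3kd* 1, 22.2% in *h3.3kd* 2 and 31.4% in WT (FDRs of 3.21e-11 and 2.49e-14), in *VRN2*, a Polycomb gene of vernalization, at 24% in *h3.3kd* 1, 23.9% in *h3.3kd* 2 and 30.3% in WT (FDRs of 1.38e-06 and 3.79e-07), and in *SUF4*, which activates *FLC* together with *FRIGIDA*, at 16.8% in *h3.3kd* 1, 20.1% in *h3.3kd* 2 and 25.5% in WT (FDRs of 9.94e-11 and 0.000229). Whether these genes and the MADS-box genes differ in their response was not tested.

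The depth over members, relative to the median gene of each library, had a median of 0.980 in *h3.3kd* 1, 1.0 in *h3.3kd* 2 and 1.06 in WT. It was under 0.5 in 3, 4 and 4 members, namely AT1G59920, *AGL53* and *AGL93* in every library and *AGL81* in *h3.3kd* 2 and WT.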

How the data were processed

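Genomic DNA of mature leaves was sequenced after bisulfite conversion in 2 *h3.3kd* libraries and 1 WT library, grouped by their labels. Per the study's methods, the authors collapsed identical reads and mapped them to TAIR10 with BS Seeker. The deposited files hold, for each cytosine of each library, the count of C reads and the count of T reads as whole numbers. Of the mapping settings, the number of mismatches allowed and the treatment of reads with several matches are not given in the sources used here. Where a cytosine had its counts on separate lines (1.23% to 1.25% of cytosines), they were summed. Reads from near-identical genes may have been placed on either copy or dropped, which makes the levels of close copies uncertain. Genes, windows and sequences came from the TAIR10.1 assembly and annotation.

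A level is C over C plus T calls at the sites of one context. Genes needed 10 CG sites and 100 calls in every library (100 calls for CHG and CHH). Each *h3.3kd* library was compared with WT by two-sided Fisher's exact tests on the counts, with Benjamini-Hochberg adjustment over all protein-coding genes tested. Calls needed an FDR under 0.01 in both libraries and 10 points (CG) or 5 points (CHG, CHH). Tiles followed the criteria by which the study called losses, here applied to gains too. As an alternative, limma was fitted with a mean trend to log2 of C over T, each count with 0.5 added (1 residual and 3.54 prior degrees of freedom), WT being assumed to vary like *h3.3kd*, with an FDR under 0.05. The procedure was tested on simulated data. Of 200 genes lowered by 20 points among 26970, Fisher's test and limma each recovered 100% with 0 false calls. A false call had to differ by 10 points in both libraries, and for limma only lower genes were counted. Genes past the FDR at any size of difference were therefore not covered. The simulation gave every gene the same spread, in WT as in *h3.3kd*, and did not model spread gene by gene. On the real data limma called 0 genes lower, although 32 were at least 20 points lower by Fisher's test. The simulated recovery therefore does not describe limma on these data, and its 0 calls do not show an absence of change.

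The members, gene lists and tests were chosen with earlier results of these data known, and the lists support nothing independently. Named genes were *FLC*, *SVP* and *AG*, members called in the body or upstream, the 5 largest drops and rises past the FDR, members with at least 10% CHG methylation, those with most called tiles (up to 5 in each direction), and the 3 largest drops among 27 other flowering regulators. Further members and genes of the lists were named after their values were seen. Alternatives changed the difference required, the windows, the weighting, the test and the libraries used. Software was Python 3.11.15, scipy 1.17.1, pandas 2.3.3, R 4.3.3 and limma 3.58.1.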

Additional observations from a re-analysis of the deposited data

How the results depend on the processing

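Several counts moved with the settings, and the cause was not tested except where the construction gives it. Requiring 5 points in place of 10 for body CG called 2 members and 2341 of all genes lower, and 3 members and 360 of all genes higher. Requiring 20 points called 0 members and 32 of all genes lower, and 0 members and 12 of all genes higher. With limma 0 members were lower and 0 higher, and 0 and 1 of all genes. Coding exons alone gave 999 of all genes lower and 154 higher. With 500 bp upstream, 377 of all genes were lower and 0 members were higher, and with 2 kb 1 member and 100 of all genes were higher. Tiles differing by 40 points were lower in 9 members. A minimum of 10 points left 0 members called in body CHG and 0 in upstream CHG.

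Averaging site levels changed the body difference to -0.198 points over all members and to -0.193 over the other members, and the upstream difference to -0.131. Among members with WT CHG under 5% these were -0.136, -0.166 and -1.44 points. Leaving out *h3.3kd* replicate 1 put the type II difference at 0.0137 points, and leaving out replicate 2 put it at -0.288 points, so that its sign depends on the library used.

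Without *h3.3kd* replicate 1 or replicate 2 agreement of both libraries is no longer required, which adds calls. Body CG then gave 1 to 2 members and 523 to 710 of all genes lower, and 2 members and 136 to 154 of all genes higher. Upstream CG gave 3 to 4 members and 864 to 1108 of all genes lower, and 3 to 4 members and 300 to 396 of all genes higher. Downstream CG gave 6 to 7 members and 1638 to 1966 of all genes lower, and 2 members and 326 to 404 of all genes higher. Tiles were lower in 22 to 23 members and higher in 16 to 20. CHG gave 1 to 3 members called in the body and 2 to 4 upstream. Of the alternative values, 44 moved by more than the limits set for a count or a level and 44 did not. No paired analysis was possible because the WT label carries no replicate number and there is 1 WT library.

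With 1 WT library, differences between single WT plants or pools and effects of *h3.3kd* cannot be told apart. Tiles with few calls, such as the *FLC* tile with 32 to 50 calls, rest on little depth.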
